A study of Drosophila melanogaster with 4 samples.

Results

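Isolated binding sites of Distal-less (Dll), a homeodomain protein of Drosophila melanogaster, were examined in chromatin of white prepupae. A peak was counted as isolated when it lay on the chromosome arms 2L, 2R, 3L, 3R or X and no other peak of the list lay within 10000 bp of either edge. The first and the last peak of each arm have a neighbour on one side only and were left out. Of the 15605 remaining peaks of these arms, 864 were isolated, or 5.54% (95% exact Clopper-Pearson interval 5.18% to 5.91%, counting error only). The list as a whole held 16117 peaks. The isolated peaks were set against 8372 crowded peaks, which had another peak within 1000 bp of an edge and made up most of the arms' binding sites.

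Dll is a transcription factor that recognises short AT-rich DNA sequences through its homeodomain. It is best known for its part in limb development, where it is required for the distal leg and antenna, and at the white prepupal stage the imaginal discs that form these appendages begin to evert under the hormone ecdysone. Regulatory DNA of developmental genes in flies often holds several binding regions spread over a stretch of sequence, so a site with no other site nearby is 1 end of a range of arrangements.

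Chromatin immunoprecipitation followed by sequencing (ChIP-seq) was done on 2 libraries of Dll ChIP DNA and 2 libraries of input DNA, the sheared chromatin before precipitation. Both groups came from white prepupae of the strain Y cn bw sp. All 4 libraries shared the same listed alleles, namely y[1] and oc[R3.2], then Gr22b[1] with Gr22d[1], followed by cn[1], then CG33964[R4.2] together with bw[1] and sp[1], and finally LysC[1], then lab[R4.2] with MstProx[1], as well as GstD5[1] and also Rh6[1]. The antibody was an affinity-purified rabbit polyclonal serum against Dll. The labels name no tissue within the prepupae, so a peak cannot be assigned to a cell type, and a site bound in few cells cannot be told apart from a site bound weakly in many. Nothing says whether replicates came from separate collections. The outcome is 1 peak list with a start, an end and 1 score per peak and with 0 values per library, so depth is unknown and no spread between replicates can be given. The score is the authors' own value on an unnamed scale and was used only to rank and describe peaks within the list. Peaks are not replicates of an experiment, and no test was run between sets of peaks. Intervals of medians are 95% binomial intervals from the ordered values and cover counting error among peaks alone. The chromosome arms, which carry separate sets of peaks, show how far a difference recurs.

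Isolated peaks were lower and narrower than crowded peaks when distance was measured from edge to edge. Measured between centres, the medians of score were equal and those of width differed by -27 bp, as given after the values by edges. Their median score was 14.66 (interval 14.1 to 15.43, interquartile range 10.53 to 31.7), against 18.45 in crowded peaks (17.95 to 18.8, interquartile range 12.23 to 37.92). Median width was 353.5 bp in isolated peaks (interval 336 to 368 bp) and 480 bp in crowded peaks (472 to 489 bp). Peaks narrower than 300 bp made up 36.8% of the isolated and 22.1% of the crowded set. At the other end, 6.13% of isolated peaks and 14.98% of crowded peaks were wider than 1000 bp. Both sets reached down to the same narrowest width, 201 bp.

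**Figure D1:**
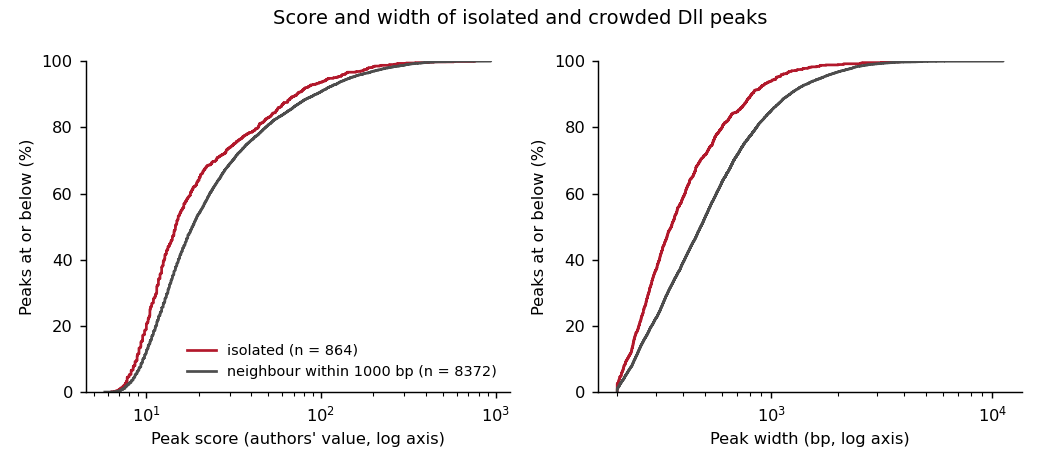
Cumulative share of peaks (percent) by score (left, the authors' value on a log axis) and by width in bp (right, log axis) for 864 isolated peaks (red) and 8372 peaks with a neighbour within 1000 bp (grey). The red curves lie to the left over most of both ranges, with medians of 14.66 against 18.45 for score and 353.5 against 480 bp for width.

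The difference in score was spread unevenly over the range. All arm peaks were divided by rank into 5 score classes of like size. The lowest class, with scores of 10.8 or less, held 26.9% of isolated peaks (exact interval 23.9% to 29.9%) and 17.0% of crowded peaks (16.2% to 17.8%). In the class from 21.34 to 44.83 the shares were 14.1% of isolated peaks (11.9% to 16.6%) and 22.0% of crowded peaks (21.1% to 22.9%). The highest class, above that, held 18.9% of isolated peaks (16.3% to 21.6%) and 21.7% of crowded peaks (20.8% to 22.6%), so the sets lay closer together there. The lowest class was over its even share of isolated peaks in 5 of 5 arms and over its even share of crowded peaks in 0 of 5. By centres, the lowest class held 26.5% of isolated peaks and 23.2% of those with another centre within 1000 bp, and in the highest class the order turned, with 19.5% of isolated peaks and 11.3% of the others.

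High peaks were present among isolated sites, at a smaller share than among crowded ones by edges and at a larger share by centres. The highest 10% of arm peaks by score began at 86.16 and took in 65 isolated peaks, or 7.52% (exact interval 5.85% to 9.49%), against 919 crowded peaks, or 10.98% (10.3% to 11.7%). By centres the shares were 8.30% of isolated peaks (6.62% to 10.2%), 4.34% of peaks with another centre within 1000 bp (3.76% to 4.98%) and 13.1% of peaks with the nearest centre at over 1000 and up to 5000 bp (12.4% to 13.8%). Peaks in the top 1%, above 305.5, numbered 6 in the isolated set, or 0.694% (0.255% to 1.51%), and 96 in the crowded set, or 1.15% (0.93% to 1.40%), and these intervals overlap. Of the 100 highest peaks of the arms, 5 were isolated, near the isolated share of all arm peaks, 5.54%.

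Within score classes, isolated peaks were still narrower by edges in all but the lowest class. A class matches score only coarsely, and the highest ran from 44.83 to 939.07. In it, 65 of 163 isolated and 919 of 1814 crowded peaks scored 86.16 or more, so score still differed between the sets there. Median widths were 269 bp in isolated and 268 bp in crowded peaks of the lowest score class. In the second class they were 286 bp in isolated peaks (interval 273 to 305 bp) and 336 bp in crowded peaks (328 to 344 bp). The gap grew with score, to 346.5 against 455 bp in the third class and 449.5 against 594 bp in the fourth. In the highest class the medians were 706 bp in isolated peaks (611 to 800 bp) and 960 bp in crowded peaks (928 to 995 bp). Isolated peaks had the lower median in 5 of 5 arms in each of these 4 classes, and in 2 of 5 arms in the lowest class. Averaged over the 5 classes, the difference was -101.4 bp on 2L, -150.3 bp on 2R, -135.4 bp on 3L and -133.5 bp on 3R, and X had the smallest, at -36.9 bp. Across peaks of a set, width rose with score in both, with a Spearman correlation of 0.658 over 864 isolated peaks and 0.736 over 8372 crowded peaks. Score and width come from the same reads of each peak, so this correlation is a description.

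**Figure D2:**
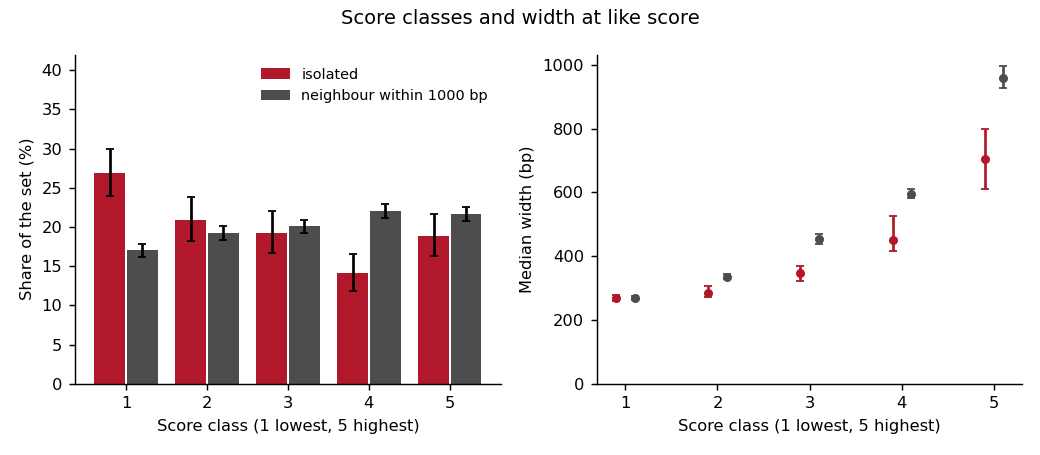
Left, share of each set (percent, with exact 95% intervals) in 5 score classes of like size, for isolated peaks (red) and peaks with a neighbour within 1000 bp (grey). Right, median width in bp with 95% intervals in the same classes, equal in class 1 within the intervals and at 706 bp in isolated peaks against 960 bp in the others in class 5.

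Both differences depended on how distance was measured. Edges of a wide peak lie closer to the next peak than its centre does, and 2 wide peaks cannot have centres close together. With distances between centres, 952 peaks were isolated, with a median score of 14.94 and a median width of 360 bp. The 4445 peaks with another centre within 1000 bp had the same median score, 14.94, and a median width of 387 bp. The width difference, averaged over the 5 score classes, was -13.8 bp by centres, against -111.2 bp by edges. In the highest of these classes it turned round, with medians of 774.5 bp in isolated peaks and 681.5 bp in the others. The median score of isolated peaks was the lower one in 3 of 5 arms by centres, and the median width in 4 of 5. A further set, added after the values were seen, was the 8652 peaks whose nearest centre lay over 1000 and up to 5000 bp away. Isolated peaks scored lower than these (14.94 against 19.32) and were narrower (360 against 492 bp). Pairs of wide peaks kept out of the set within 1000 bp can fall into this one, so it cannot settle the order. By edges, the differences from peaks over 1000 and up to 5000 bp from a neighbour were -1.19 and -53.5 bp.

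Over the whole range of distances by edges, the median width was lower in each successive class, while the median score was not. Median widths were 480 bp for a nearest peak at up to 1000 bp, 417.5 bp up to 2000 bp, 398 bp up to 5000 bp and 377 bp up to 10000 bp. Within the isolated set they were 356 bp up to 20000 bp (610 peaks), 339 bp up to 50000 bp (207 peaks) and 315 bp beyond (47 peaks), with overlapping intervals. Median scores in the same 3 isolated classes were 14.94, 14.10 and 16.67, and the last has a wide interval, 13.02 to 27.93. By centres, the highest medians of both measures fell in the class from 1000 to 2000 bp, at 20.8 for score and 531.5 bp for width. From 5000 bp upward both ways of measuring gave like values. Inside the isolated set, the Spearman correlation of score with the distance to the nearest peak was -0.0077 over 864 peaks.

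**Figure D3:**
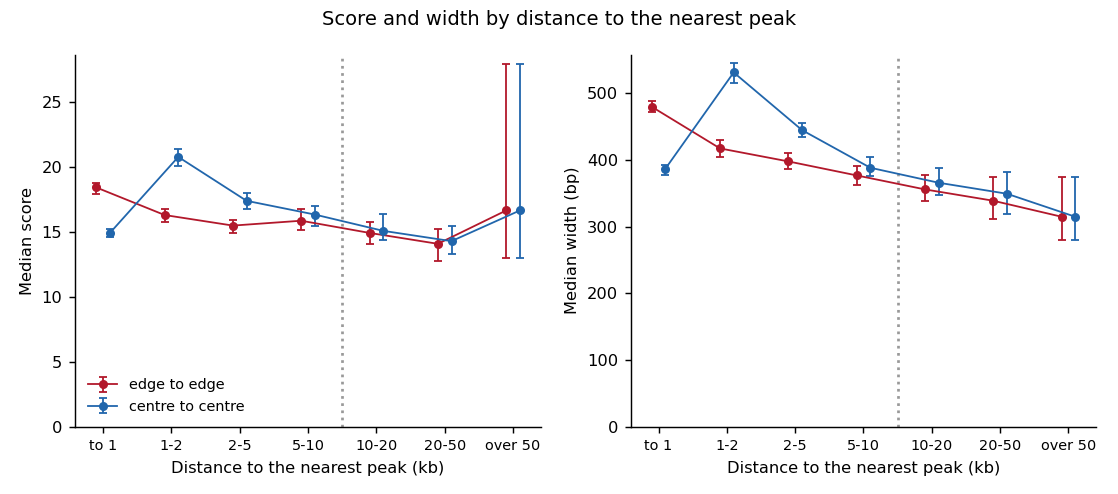
Median score (left, the authors' value) and median width in bp (right), each with its 95% interval, by distance to the nearest peak in kb, measured edge to edge (red) or centre to centre (blue). Isolated peaks lie right of the dotted line. The 2 measures part at short distances, where the first class has a median width of 480 bp by edges and 387 bp by centres.

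The 3 isolated peaks nearest the distance limit had their closest neighbour at 10010, 10024 and 10024 bp, with scores of 10.97, 14.1 and 35.2. The last 2, both on X, are each other's nearest neighbour and share the gap between them. Just outside the limit, 3 peaks with a neighbour at 9999, 9985 and 9978 bp scored 11.22, 19.76 and 48.44. Peaks with the nearest neighbour at over 5000 and up to 10000 bp numbered 1341. They had a median score of 15.88 (15.15 to 16.77) and a median width of 377 bp (362 to 391 bp). Both intervals overlap those of isolated peaks. Of these 1341, 31.5% were narrower than 300 bp, 6.71% wider than 1000 bp and 17.5% scored under 10. The isolated shares were 36.8%, 6.13% and 19.0%. Peaks at the rim of a group, with a neighbour within 1000 bp on one side and none within 10000 bp on the other, numbered 1288. Their median score was 16.97 (15.85 to 17.87) and their median width 416.5 bp (403 to 437 bp), above the isolated set on both counts. The 2087 peaks with a neighbour within 1000 bp on both sides had medians of 21.02 and 550 bp.

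Each arm showed the same order by edges. On 2L the median score was 14.38 in isolated and 16.68 in crowded peaks. The 2R medians were 14.66 in isolated and 18.09 in crowded peaks, and those of 3L were 14.61 and 18.8 in the same order. Isolated peaks of 3R had a median of 13.97, against 18.18 in crowded ones. X stood highest in both sets, with 17.17 in isolated peaks (interval 14.38 to 20.38) and 22.01 in crowded peaks (20.38 to 24.38). The difference was -3.79 ± 0.97 (mean ± SD over 5 arms). Intervals of the sets did not overlap on 2L, 2R, 3L and 3R, and on X they met at 20.38. For width the difference was -129.8 ± 16.4 bp (mean ± SD over 5 arms), from -117 bp on 2L to -158 bp on 3R, and the intervals did not overlap on any arm.

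On X, the highest 10% of arm peaks by score took in 7.91% of isolated and 17.6% of crowded peaks by edges, and by centres 8.25% of isolated peaks and 8.90% of those with another centre within 1000 bp. On the other arms it took in, by edges, 7.42% of isolated and 10.2% of crowded peaks, and whether X differs from these arms was not tested. Isolated peaks of X with scores under 10 were fewer than elsewhere, 12.4% against 20.7% of the isolated peaks on the other 4 arms. Crowded peaks had the same order, with 8.72% on X and 12.2% on the other arms.

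Isolated peaks varied less in density between the arms than crowded peaks did. Because release 5 arm lengths were not used here, the span from the first to the last peak stands for the length of an arm. Isolated peaks numbered 6.58 per Mb on 2L, 7.12 on 2R, 7.35 on 3L, 7.42 on 3R and 7.90 on X. Crowded peaks numbered 63.5 per Mb on 2L, 90.7 on 2R, 73.8 on 3L, 82.1 on 3R and 40.9 on X. X thus had the most isolated and the fewest crowded peaks per Mb. It held 177 isolated peaks, which were 20.5% of the isolated set (exact interval 17.8% to 23.3%), 10.95% of the crowded set and 18.9% of the summed span. The same peaks were 9.56% of the peaks of X (8.26% to 10.99%), against 4.99% on the other 4 arms (4.64% to 5.37%). The rule favours isolation where peaks are sparse, so these densities and shares describe the list and are no separate finding on binding.

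**Figure D4:**
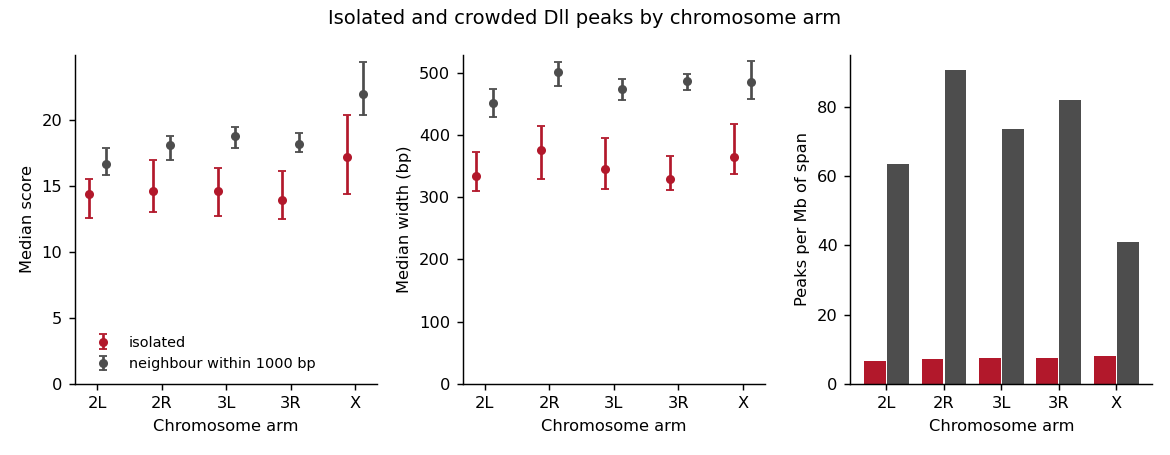
Median score (left, the authors' value) and median width in bp (middle), each with its 95% interval, and peaks per Mb of span (right), by chromosome arm, for isolated peaks (red) and peaks with a neighbour within 1000 bp (grey). Isolated peaks lie lower on every arm in the first 2 panels, and their density stays between 6.58 and 7.90 per Mb while that of the others runs from 40.9 to 90.7 per Mb.

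Along the arms, isolated peaks were present in every one of 116 whole windows of 1 Mb, at 7.24 ± 2.92 per window (mean ± SD), from 1 to 15. Crowded peaks numbered 71.3 ± 36.1 per window, from 0 to 230. The second window of 3R held the 15 isolated peaks, beside 45 crowded ones, and the ninth window of X held 14 beside 44. When each span was cut into 10 equal parts from the centromere end and the parts were summed over the arms, isolated peaks numbered 76 to 106 per part and crowded peaks 499 to 1157. The part at the centromere end, like each of them 10% of the span, held 91 isolated peaks and 499 crowded peaks. Isolated peaks were 8.82% of all its peaks (7.16% to 10.7%). At the far end they were 78, beside 1157 crowded peaks, or 4.08% (3.23% to 5.06%). The first of these parts held 1032 peaks in all and the last 1914. The rule favours isolation where peaks are sparse, so these shares too describe the list only. By arm, isolated peaks of the part at the centromere end were 19 of 222 on 2L, 13 of 92 on 2R and 19 of 211 on 3L. They were 27 of 451 on 3R, which held 239 of the 499 crowded peaks, and 13 of 56 on X. At the far end they were 13 of 344 on 2L, 8 of 410 on 2R and 11 of 453 on 3L. On 3R they were 24 of 456 there, so that arm showed little contrast, and on X 22 of 251. Whether reads could be placed in the sequence of the part at the centromere end was not tested. Isolated peaks there had a median score of 14.1 and a median width of 342 bp, against 14.73 and 354 bp in the isolated peaks of the rest.

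Empty sequence around an isolated peak ranged widely. The nearest neighbour lay at a median of 14.6 kb (interquartile range 11.8 to 21.9 kb) and the one on the other side at 28.5 kb (18.6 to 51.9 kb). Of the 864 peaks, 254 were more than 20000 bp from any other, 47 more than 50000 bp and 7 more than 100000 bp. On 2R, the most remote (1231099 to 1231692) had 233.9 kb and 284.3 kb of free sequence on its sides and a score of 18.18 over 594 bp. Next came 2 peaks on 3L. One at 23149426 to 23149658 scored 9.3 and had 195.6 kb to its nearest neighbour, and one at 24095564 to 24095773 scored 16.38 and had 171.2 kb. Of the 10 most remote peaks, 9 lay in the part at the centromere end of the span. The exception, on 3R at 23972219 to 23972429, scored 14.38 and was 120.1 kb from the nearest peak. Scores of these 10 had a median of 17.73, and none of them was among the 10 highest isolated peaks.

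Runs of isolated peaks were drawn from the gaps that the rule itself used, since direct neighbours share the gap between them, so their number is a description only. In 577 stretches with 1 or more isolated peaks in a row, 401 peaks stood alone and 463, or 53.6%, had another isolated peak as a direct neighbour. Runs of 5 or more numbered 11 and took in 67 peaks. The longest, 8 peaks on X from 15582081 to 15880590, covered 298.5 kb and had scores from 10.59 to 409.84. On 2L, 7 peaks from 10371496 to 10598707 scored between 7.97 and 21.31, with a median of 10.56. A run of 7 on 3L, from 22953472 to 24267175, stretched over 1314 kb at the centromere end of the span, with scores from 7.55 to 61.08. A shorter run of 7 on that arm, from 12140076 to 12259552, had scores from 8.4 to 60.59.

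The isolated peak with the highest score lay on 3R at 22055223 to 22058374. It scored 761.91 over 3152 bp and ranked the fourth of all peaks of the arms. Its neighbours, at 100.0 and 18.8 kb, scored 14.66 and 9.52. On 3L, the peak at 5177546 to 5178595 scored 577.4 over 1050 bp, with neighbours of 59.22 at 37.8 kb and 11.97 at 61.4 kb. The third, on 2L at 5236367 to 5238131, scored 439.94 and had 11.4 and 11.1 kb of free sequence on its sides, little over the limit. Within 60 kb of it lay 19 other peaks, against 3 around each of the first 2. On X, the peak at 15705553 to 15706663 scored 409.84 inside the longest run, with neighbours of 37.96 at 100.9 kb and 37.71 at 22.1 kb.

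The other 6 of the 10 highest were on 3L, 2R and X. The 3L peak at 7426673 to 7428797 scored 348.28, with neighbours of 9.52 and 11.97. Of those on 2R, 1 spanned 11139840 to 11140645 and scored 307.51. Another, from 3609986 to 3610956, reached 273.91 and had a neighbour of 122.31. The third of that arm spanned 10194518 to 10196122 and scored 246.84. X held the peak from 2088041 to 2088881, which scored 275.12 with more than 27.3 kb free on each side, and that from 8923837 to 8924440, which scored 264.75. The last of these is the exception among the 10, since a peak at 11.6 kb scored higher, at 326.99. Across the 10 peaks, 13 of 20 neighbours scored under 20, against 60.8% of the neighbours of all isolated peaks and 57.5% of those of all arm peaks, so these neighbours were not set apart by low scores. That 9 of the 10 exceeded both neighbours follows from choosing the highest peaks.

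**Figure D5:**
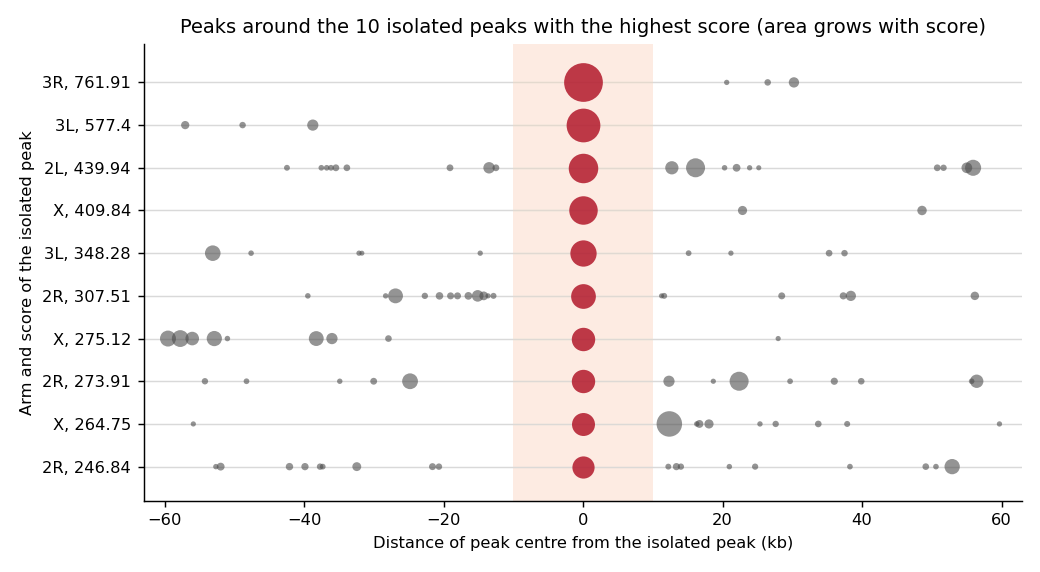
Peaks within 60 kb of the 10 isolated peaks with the highest scores, by distance between centres in kb. Each row is 1 isolated peak, named by arm and score, shown in red at 0, and other peaks are grey; the area of a point grows with its score. The shaded band marks 10 kb on each side of the centre, and the uppermost row has 3 other peaks, the third row 19.

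Isolated peaks as a whole scored above both neighbours in 30.6% of cases (27.5% to 33.7%) and crowded peaks in 33.1% (32.1% to 34.1%). They scored below both in 35.3% of cases (32.1% to 38.6%), against 30.9% of crowded peaks (29.9% to 31.9%). Of all arm peaks, 32.6% scored above both and 32.5% below both, each within the interval of the isolated peaks. The peaks next to isolated peaks had a median score of 15.88, those next to crowded peaks 17.87 and those next to any arm peak 16.97. Peaks next to isolated peaks include isolated peaks themselves.

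Wide isolated peaks were few, and 2 of the 10 widest were also among the 10 highest. The widest lay on 2R at 3375877 to 3380531, covered 4655 bp and scored 185.65. It ranked 15 by width among all arm peaks. Next were a peak of 3852 bp on 3L at 16401088 to 16404939 (score 202.68) and one of 3341 bp on 2R at 7251865 to 7255205 (182.61). X held 3 of the 10, at 5452782 to 5455372 (2591 bp), 4918885 to 4921429 (2545 bp) and 11606824 to 11609348 (2525 bp), with scores of 177.12, 183.47 and 200.05. Beside the 2 already named as high, the last 2 of the 10, both on 3R, lay at 22645720 to 22647846 and 4159015 to 4161026. The first of these had the lowest score of the 10, 57.2 over 2127 bp, and the second scored 168.04 over 2012 bp.

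At the lower end, the 5 isolated peaks with the lowest scores lay between 6.34 and 6.93 and were 211 to 294 bp wide, and a sixth, on 3L at 17331619 to 17331836, tied with the fifth at 6.93. The lowest was on 2R at 4306107 to 4306317. A pair of them, on 3L at 22520589 to 22520824 and at 22543661 to 22543895, were neighbours 22.8 kb apart with scores of 6.53 and 6.73. Scores under 10 were found in 19.0% of isolated peaks and 11.8% of crowded peaks.

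Isolation also depended on how weak a peak was allowed into the list. When only peaks at or above the median score of the list, 17.27, were kept, 1141 of 7710 peaks were isolated. Of these, 357 were isolated in the whole list too, and 784, or 68.7%, had lost all neighbours within 10000 bp to the higher limit. The 357 had a median score of 41.8 and the 784 a median of 33.89. Peaks at or above 17.27 numbered 359 in the isolated set, or 41.6% of it.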

How the data were processed

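The study consists of 2 Dll ChIP and 2 input libraries of white prepupae, deposited as 1 peak list. Per the submitters' processing notes, the tools were MACS2, BWA and CASAVA in versions 1.7.0.2 and 1.7.0.3, and the build was BDGP5. Per the file headers, the list is GFF version 3 on FlyBase release 5, with 1-based positions. The score was deposited under the name MACS without a scale. For the calling threshold, filters and pooling of replicates, nothing is given in the sources used here.

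Distances were bases between peak edges, and widths end minus start plus 1. Shares have exact 95% Clopper-Pearson intervals and medians binomial order-statistic intervals. The centromere end was taken as high on 2L, 3L and X and low on 2R and 3R. It is an end of the span of peaks, which need not reach the centromere. Peaks named are the 10 highest, 10 widest, 10 most remote and 5 lowest isolated peaks and 3 on each side of the limit; runs of isolated peaks were chosen after their values were seen. The members and comparisons were chosen with earlier results of these data known. Genes and sequence were not analysed here, since the only gene table used here follows release 6. The computations used Python 3.11.15, pandas 2.3.3, NumPy 2.4.6, SciPy 1.17.1 and Matplotlib 3.10.9 and were tested on simulated lists.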

Additional observations from a re-analysis of the deposited data

Results flagged for a closer look

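Peaks outside the 5 arms entered no comparison and are given because they are signal in data set aside. They numbered 502, or 3.11% of the list. Chromosome 4 is the only one of these sequences for which the distance rule was applied, and 5 of its 28 peaks with neighbours on both sides had no other within 10000 bp, or 17.9% (exact Clopper-Pearson interval 6.06% to 36.9%). Those 5 had a median score of 33.11, from 15.22 to 78.56, and a median width of 606 bp.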

How the results depend on the processing

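No paired analysis was possible because the list holds no values per library. For 6 results, 75 alternative values were computed under 15 settings. Of these, 59 stayed within the exact interval of the share or 1 SD between arms. Among the 59, 2 did so by construction. The share of isolated peaks in the highest 10% does not use the neighbour distance of the other set. More of the 59 had little room to move. Merging peaks within 50 bp left 865 isolated and 8331 crowded peaks, and leaving out 1 arm kept most of the peaks. The count of 59 is thus no measure of how firm the results are. The other 16 of the 75 values moved further and 0 changed sign, though 1 became 0. For the highest 10%, only the isolated share was counted. Its order against the other set turned, from 7.52% against 10.98% by edges to 8.30% against 4.34% by centres. Settings chosen after seeing the data included leaving out the 10% of each span at the centromere end. The others, by edges and by centres, took peaks over 1000 and up to 5000 bp from a neighbour as the other set. The isolated share, 5.54%, was 14.1% at 5000 bp, 1.63% at 20000 bp, 6.10% by centres, 14.8% in the highest 50% of peaks and 4.99% without arm X. A shorter distance or fewer peaks changes it by construction. The X share of isolated peaks, 20.5%, was 16.6% at 5000 bp, 26.4% at 20000 bp and 16.5% in the highest 50%. The median score difference, -3.79, was 0 by centres, -1.39 in the highest 50% and -1.19 against peaks over 1000 and up to 5000 bp from a neighbour. The median width difference, -126.5 bp, was -27 bp by centres, -109.5 bp with neighbours within 2000 bp and -53.5 bp against these peaks. Averaged over the 5 score classes, -111.2 bp became -13.8 bp by centres and -65.1 bp against the same peaks. By centres, pairs of wide peaks cannot enter the set within 1000 bp. The share of isolated peaks in the highest 10% by score stayed between 6.69% and 8.76%, with the limit drawn anew within the peaks of each setting. Without arm X it was 8.15% by such a limit and 7.42% by the limit of all arm peaks, 86.16. Depth is unknown, so peaks that more reads would add cannot be counted, and each one added could end the isolation of others.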
